A study of Homo sapiens with 6 samples.

Results

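The red cell membrane and blood group genes considered here are SPTB, ANK1, EPB41, EPB42, SLC4A1, GYPC, KEL and XK, chosen by gene symbol. Of these 8 genes, 6 had a named probe set among the 17687 distinct gene symbols of the array. Each of the 6 was read by 1 probe set. SPTB and GYPC matched no named probe set and were not analysed here. The cells were K562, a human erythroleukaemia line with a BCR-ABL1 fusion that makes embryonic and fetal haemoglobins. Cells given a miR-543 vector, labelled as overexpressing this microRNA, were measured on 3 arrays, and cells given a control vector on 3 more. No other treatment or genotype separates the groups in the labels. The labels do not say whether the replicates came from separate cultures, so p-values reflect the spread of these 6 samples alone, part or all of which may be technical. The level of miR-543 itself was not analysed here.

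The red cell membrane is held in shape by a mesh of spectrin under the lipid bilayer. Ankyrin-1 (ANK1) ties the spectrin mesh to the anion exchanger band 3 (SLC4A1), and protein 4.2 (EPB42) steadies that junction. Protein 4.1 (EPB41) binds spectrin to actin and to glycophorin C (GYPC) at a separate junction. The Kell blood group protein (KEL), an endopeptidase with its active site outside the cell, is joined by a disulphide bond to XK, the carrier of the Kx antigen and a lipid scramblase. Defects of band 3, ankyrin-1, spectrin and the 4.1 and 4.2 proteins cause inherited spherocytosis or elliptocytosis, and loss of XK causes McLeod syndrome.

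The agent that separates the groups is shown first. The capitals mark bases 2 to 8, the seed through which a microRNA pairs with its targets, in the RefSeq mature sequence (GRCh38.p14, chr14:101032033-101032054, plus strand).
hsa-miR-543: aAACAUUCgcggugcacuucuu

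Values are log2 signals after RMA, as the authors deposited them, and a difference of 1 between groups is a doubling of signal. A log2 change is the mean of the miR-543 vector arrays minus that of the control vector arrays. The test was limma's moderated test over all 21448 probe sets, with Benjamini-Hochberg adjustment over all of them, and called means an adjusted p under 0.05. Array medians lay between 5.99 and 6.01, lower quartiles between 3.98 and 4.03, and upper quartiles between 9.61 and 9.66. These marks serve to place a probe set on its array. Probes differ in affinity, so signals of different genes are not set against each other as amounts of mRNA. In such bulk samples fewer cells expressing a gene and less RNA per cell cannot be told apart.

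Of the 6 measured members, 0 were called in either direction, against 0.569% of all probe sets (122 of 21448), 0.131% as rises and 0.438% as falls. KEL, XK and SLC4A1 had all 3 miR-543 vector arrays above all 3 control vector arrays. That is 3 of 6 members, where 7.89% of all probe sets lay that way. No member had the opposite arrangement, which 7.5% of all probe sets showed. An unadjusted p under 0.05 was reached by the same 3 members, all on the higher side, beside 10.6% of all probe sets in either direction and 5.4% on the higher side. The median log2 change of the 6 members was 0.40, and that of all probe sets was 0.01. The members' median was 0.25 when probe sets of low mean signal were left out, which removed SLC4A1 and EPB42. The log2 changes were 0.65 for KEL and 0.49 for XK, whose proteins form the Kell complex. At the ankyrin junction they were 0.47 for SLC4A1, 0.32 for EPB42 and 0.01 for ANK1, and EPB41 had one of -0.16.

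The Kell blood group gene KEL (TC0700012870.hg.1, chromosome 7) had the highest change of the 6. Its log2 signal was 10.37, 10.15 and 10.62 on the miR-543 vector arrays, against 9.74, 9.98 and 9.48 on the control vector arrays. The groups did not overlap, and the lowest miR-543 vector array lay 0.17 above the highest control vector array. The means were 10.4 ± 0.24 with the miR-543 vector and 9.73 ± 0.25 with the control vector (SD, n = 3 each). The log2 change was 0.65 (SE 0.18, 95% interval 0.25 to 1.04), a 1.57-fold difference. In limma's test the adjusted p was 0.222, so KEL was not called. By unadjusted p (0.00442) it stood at rank 428 of 21448 probe sets. On 5 of 6 arrays KEL lay above the upper quartile.

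XK (TC0X00006957.hg.1, chromosome X), the partner to which Kell is bonded, read 9.37, 9.25 and 9.22 with the miR-543 vector, against 8.81, 8.95 and 8.60 with the control vector. The groups did not overlap and were 0.27 apart at their nearest, the widest such gap among the 6 members. The means were 9.28 ± 0.079 with the miR-543 vector and 8.79 ± 0.18 with the control vector (SD, n = 3 each). Its log2 change was 0.49 (SE 0.15, 95% interval 0.17 to 0.82), a 1.41-fold difference (limma adjusted p = 0.26). XK lay between the median and the upper quartile on all 6 arrays. The change of KEL exceeded that of XK by 0.15, and the difference was tested over arrays (exact permutation p = 0.6, two-sided). The smallest p that 3 arrays against 3 can give is 0.1, so this test could not show that the 2 changes differ.

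Band 3 (SLC4A1, TC1700010820.hg.1, chromosome 17), which exchanges chloride for bicarbonate and carries the Diego antigens, had a low signal. It read 3.83, 4.28 and 3.81 with the miR-543 vector, against 3.55, 3.66 and 3.29 with the control vector. The groups did not overlap, and the array of replicate 2 was the highest within each. On 5 of 6 arrays the signal lay under the lower quartile. The log2 change was 0.47 (SE 0.17, 95% interval 0.09 to 0.86), with an adjusted p of 0.379 by limma. Whether signals this low stand above background was not tested, so the size of the difference is uncertain.

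Protein 4.2 (EPB42, TC1500010857.hg.1, chromosome 15), which resembles a transglutaminase without its catalytic activity and binds band 3 and ankyrin-1, was also low. It read 3.64, 4.01 and 3.84 with the miR-543 vector, against 3.64, 3.37 and 3.53 with the control vector. The groups met at 3.64, which replicate 1 of each group shared. All 6 arrays lay under the lower quartile. The log2 change was 0.32 (SE 0.15, 95% interval -0.02 to 0.66), with an adjusted p of 0.511 by limma. The change of SLC4A1 exceeded that of EPB42 by 0.16 (exact permutation p = 0.5).

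ANK1 (TC0800010252.hg.1, chromosome 8), the ankyrin of the red cell, had a signal above the upper quartile on all 6 arrays. It read 13.44, 13.53 and 13.26 with the miR-543 vector, against 13.37, 13.31 and 13.51 with the control vector. The groups overlapped, and the highest and the lowest array of the 6 both carried the miR-543 vector. The log2 change was 0.01 (SE 0.14, 95% interval -0.30 to 0.33; adjusted p = 0.988), an interval that still holds changes of about 0.3 either way. SLC4A1, whose protein ankyrin-1 anchors, changed by 0.46 more than ANK1. The exact permutation p of that difference was 0.1, the smallest possible, and 0.3 after Benjamini-Hochberg adjustment over the 3 pairs of binding partners compared.

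Protein 4.1 (EPB41, TC0100007574.hg.1, chromosome 1), which strengthens the bond of spectrin with actin, was the 1 member with a lower mean in miR-543 vector cells. It read 13.71, 13.79 and 13.69 with the miR-543 vector, against 14.04, 13.65 and 13.97 with the control vector. Control vector replicate 2 lay below every miR-543 vector array and the other 2 control vector arrays lay above them. The log2 change was -0.16 (SE 0.15, 95% interval -0.49 to 0.18; adjusted p = 0.778), and all 6 arrays lay above the upper quartile. SDs were 0.053 with the miR-543 vector and 0.21 with the control vector (n = 3 each).

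**Figure D1:**
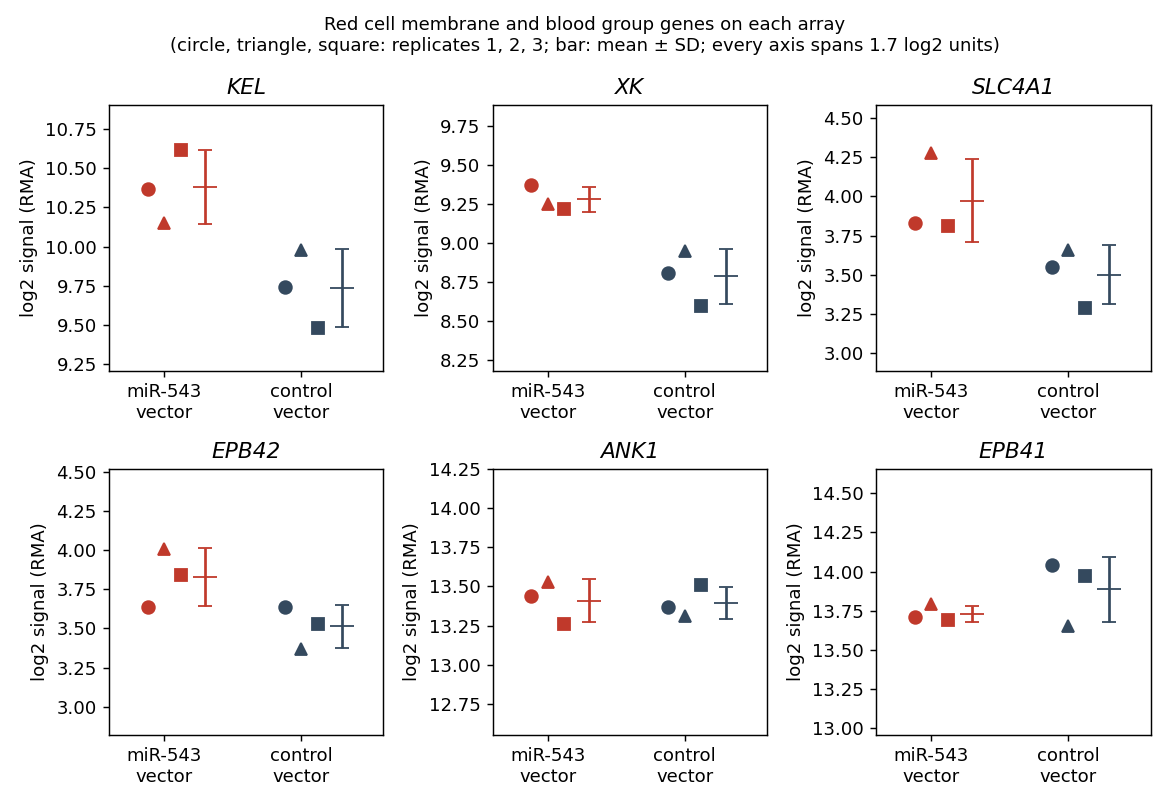
Log2 RMA signal of the 6 measured members on each array, miR-543 vector on the left and control vector on the right of every panel, with mean ± SD (n = 3). The groups are separate for KEL, XK and SLC4A1, meet at 3.64 for EPB42, and overlap for ANK1 and EPB41.

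The members' extremes were spread over several arrays. The highest value of a member fell on miR-543 vector replicates 1, 2 and 3 for 1, 3 and 1 of the 6 genes and on control vector replicate 1 for 1. The lowest value fell on control vector replicate 3 for 3 genes on control vector replicate 2 for 2, and on miR-543 vector replicate 3 for 1. Taken per array, the median of the 6 members relative to their control means was 0.23, 0.44 and 0.32 with the miR-543 vector, against 0.04, 0.04 and -0.08 with the control vector. These array medians did not overlap between the groups, but they restate the values given above and are no separate evidence. The highest was that of miR-543 vector replicate 2. Without that array the median change of the members was 0.27. Among all probe sets, KEL, XK and SLC4A1 ranked 153, 456 and 540 by size of rise, EPB42 ranked 1895, ANK1 10764 and EPB41 16856.

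**Figure D2:**
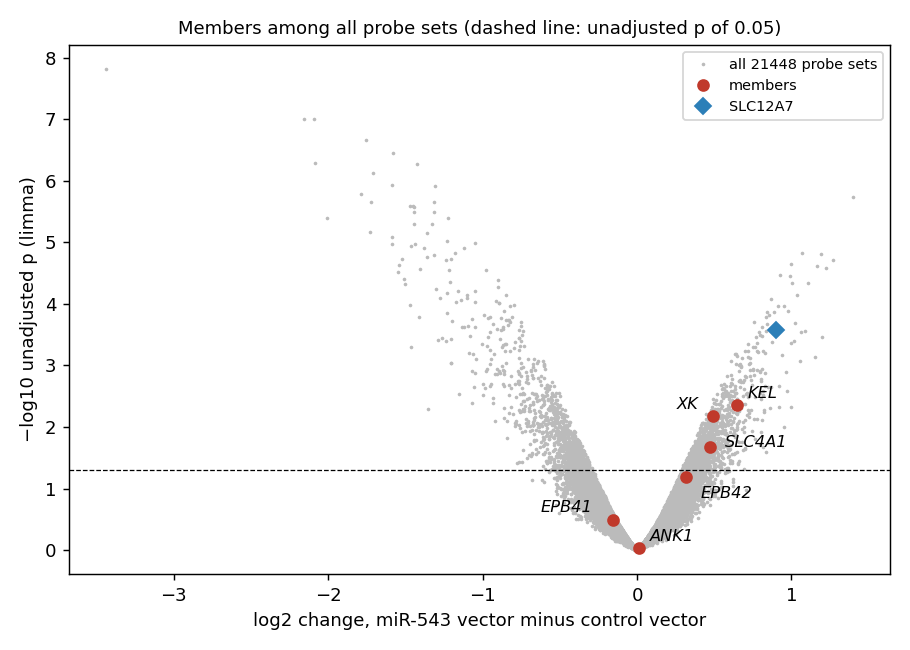
Log2 change (horizontal) against −log10 of the unadjusted limma p (vertical) for 21448 probe sets in grey, the 6 members in red and SLC12A7 as a blue diamond. KEL, XK and SLC4A1 lie on the right-hand side above the dashed line and below SLC12A7, and EPB42, ANK1 and EPB41 lie under the line.

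RefSeq promoter windows of 300 bases, running from 250 bases before to 50 after the gene's start, were matched for 3 of the 6 members, with 2 windows for EPB41. Each was searched on both strands for the letters AGATAA and TGATAA, which GATA factors bind, and for CCNCNCCC, a pattern bound by KLF1 and related factors. GATA1 and KLF1 are the leading activators of red cell genes. KEL and EPB42 each held 2 matches to AGATAA or TGATAA and both EPB41 windows held 0. Of 35116 windows of the same length, 16.3% held at least 1 such match and 2.87% held 2 or more. GATA runs with other flanking letters were not searched for. Counted with overlaps, the pattern CCNCNCCC occurred 1 time in KEL, 4 times in EPB42, and 6 and 4 times in the 2 EPB41 windows. Some of the EPB42 and EPB41 matches overlapped one another. Of all windows 56.2% held the pattern at least 1 time and 36.0% held it 2 or more times. No GATA match overlapped such a pattern. The windows of KEL and EPB42 are shown because they alone among the members searched held AGATAA or TGATAA, which stand in capitals. They come from GRCh38.p14, chr7:142962314-142962613 for KEL and chr15:43220969-43221268 for EPB42, both on the minus strand.
KEL: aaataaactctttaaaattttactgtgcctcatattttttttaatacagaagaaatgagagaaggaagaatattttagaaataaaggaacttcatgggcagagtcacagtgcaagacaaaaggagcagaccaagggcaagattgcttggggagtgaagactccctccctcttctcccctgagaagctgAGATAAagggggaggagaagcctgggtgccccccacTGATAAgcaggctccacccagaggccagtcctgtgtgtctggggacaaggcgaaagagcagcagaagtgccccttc
EPB42: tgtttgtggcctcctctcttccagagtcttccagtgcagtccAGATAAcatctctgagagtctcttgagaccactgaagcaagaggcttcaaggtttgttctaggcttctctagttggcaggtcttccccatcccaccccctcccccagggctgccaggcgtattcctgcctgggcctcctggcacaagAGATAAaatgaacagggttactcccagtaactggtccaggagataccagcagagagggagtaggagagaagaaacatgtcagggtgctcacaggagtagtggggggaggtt

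The KEL matches began 62 and 26 bases before the start and those of EPB42 208 and 61 bases before it. A match is a run of letters and does not show that a factor bound there. The EPB41 windows were the richest in G and C, at 67.7% and 70.0%, against 54.0% in EPB42 and 47.3% in KEL.

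The factors that bind such letters were measured on the same arrays. KLF1, which activates many genes of the red cell membrane, read 7.67, 7.43 and 7.31 with the miR-543 vector, against 6.80, 6.87 and 6.75 with the control vector, with no overlap. Its log2 change was 0.66 (SE 0.15) and it was not called (adjusted p = 0.106, limma). GATA1 had a log2 change of 0.01 (SE 0.14), with signals above the upper quartile on every array. TAL1 and NFE2, a partner of GATA1 and a factor of globin control regions, had log2 changes of 0.41 and 0.34 and groups that did not overlap (adjusted p = 0.371 and 0.423). Of 9 erythroid transcription factors 0 were called, 3 had higher groups without overlap (beside 7.89% of all probe sets), and the median change was 0.01.

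Markers of K562 cells and of other cell types give the setting of these values. Of 12 K562 markers 9 were measured and 8 lay above the upper quartile on all 6 arrays, among them the transferrin receptor TFRC and the globin genes HBE1 and HBZ. Of the 9 measured markers 0 were called, 8 had changes above 0 and the median log2 change was 0.30. Over all probe sets 52.3% had changes above 0. ALAS2, the first enzyme of haem synthesis in red cells, TAL1 and the near-identical globin genes HBA1 and HBA2 lay higher without overlap, with log2 changes of 0.40, 0.41, 0.31 and 0.30. TFRC, HBE1 and HBZ overlapped, at -0.08, 0.10 and 0.32. The markers' mean log2 signal lay between 14.1 and 14.2 on the miR-543 vector arrays, against 13.9 and 14.0 on the control vector arrays, without overlap. For 6 of 7 stromal markers measured, all 6 had changes above 0 and 0 were called, and 5 lay under the array median on every array. Their mean ran from 5.26 to 5.35 with the miR-543 vector, against 4.84 to 5.20 with the control vector, also without overlap. A low log2 signal does not show that a marker was expressed, since detection calls were not used. The part of these markers in the differences of KEL, XK and SLC4A1 was not tested. The means of the lymphoid, myelomonocytic and epithelial lists overlapped between the groups, and 0 of their measured genes were called. The lymphoid marker CD3D lay higher without overlap at a log2 change of 0.64 (adjusted p = 0.184, limma). The epithelial marker KRT19 lay lower without overlap at -0.15 (adjusted p = 0.753), and no other gene of these lists had separate groups. CD3D, KRT19, LYZ and EPCAM lay above the upper quartile on all 6 arrays, and no other measured gene of these 3 lists did. Under the array median on every array lay 4 of 6 lymphoid, 3 of 6 myelomonocytic and 4 of 7 epithelial markers measured.

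Other genes of the red cell membrane were taken from 5 lists that hold 60 genes, 53 of them measured. Of these 1 was called, and it was higher with the miR-543 vector, beside 0.131% of all probe sets called as rises. Changes above 0 were found for 35 and below 0 for 18, with a median of 0.08. Of all probe sets 52.3% had changes above 0. The miR-543 vector arrays lay wholly above the control vector arrays for 11 of the 53 (20.8%, beside 7.89% of all probe sets) and wholly below for 3 (5.66%, beside 7.5%).

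The called gene was SLC12A7, the potassium and chloride cotransporter KCC4, in the list of transporters and channels. It read 7.04, 7.07 and 7.32 with the miR-543 vector, against 6.28, 6.47 and 5.97 with the control vector. SLC12A7 rose 1.87-fold (log2 change 0.90, SE 0.17, 95% interval 0.53 to 1.27; limma adjusted p = 0.0488), with groups 0.57 apart. The call lay next to the threshold and was lost without any 1 of the 6 arrays (adjusted p = 0.0704 to 0.183). The glucose transporter SLC2A1 had a log2 change of 0.54 and the nucleoside transporter SLC29A1, carrier of the Augustine blood group, one of 0.38 (adjusted p = 0.204 and 0.449). For both genes all 3 miR-543 vector arrays lay above all control vector arrays. The aquaporin AQP3, carrier of the GIL antigen, had a log2 change of 0.32 (adjusted p = 0.653). All 10 measured members of this list had changes above 0, beside 52.3% of all probe sets, with a median of 0.23.

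Among the carriers of other blood groups, 0 of 18 were called. CD44, the hyaluronan receptor that carries the Indian antigens, read 9.70, 9.98 and 9.67 with the miR-543 vector, against 9.24, 8.91 and 9.01 with the control vector. Its groups did not overlap, and its log2 change of 0.73 (SE 0.15) had an adjusted p of 0.0917. ACKR1, the Duffy antigen and a chemokine receptor, had a log2 change of 0.48 at a low signal, with means of 4.02 ± 0.11 with the miR-543 vector and 3.54 ± 0.24 with the control vector (SD, n = 3 each; limma adjusted p = 0.314). CR1, the complement receptor of the Knops group, and ABCG2, the transporter of the Junior group, had log2 changes of 0.30 and 0.21 (adjusted p = 0.51 and 0.636). The list had a median of 0.07, with 5 genes of 18 higher without overlap and 0 lower, beside 7.89% and 7.5% of all probe sets.

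The Rh complex, which binds band 3 and ankyrin-1 in the membrane, had 0 calls among 5 measured genes. RHAG, the glycoprotein that the Rh antigens need to reach the membrane, had a log2 change of 0.10 at a signal of 14.87 or more on every array. RHCE and RHD, near-identical genes whose probes may share signal, had log2 changes of 0.35 and 0.27 (adjusted p = 0.48 and 0.551). RHD lay higher without overlap, the 1 gene of the 5 to do so, beside 7.89% of all probe sets. CD47, which marks cells as self, and ICAM4, the Landsteiner-Wiener antigen, had log2 changes of 0.19 and -0.24 (adjusted p = 0.74 and 0.685).

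Of 11 measured partners of the membrane skeleton 0 were called, 4 lay above 0, 7 lay below 0 and the median log2 change was -0.05. FLOT1, the raft protein flotillin-1, lay higher without overlap at a log2 change of 0.08, and 2 partners lay lower without overlap. Over all probe sets 7.89% lay higher and 7.5% lower in this way. STOM, the integral membrane protein stomatin, read 9.81, 9.82 and 9.44 with the miR-543 vector, against 10.71, 10.49 and 10.11 with the control vector. Its groups did not overlap, and its log2 change of -0.75 (SE 0.19) did not pass (adjusted p = 0.164). TPM1, a tropomyosin that lies along actin filaments, had a log2 change of -0.49, again with separate groups (adjusted p = 0.276). The adducins ADD2 and ADD3, which cap actin and join it to spectrin, had log2 changes of -0.29 and -0.16 (adjusted p = 0.649 and 0.828).

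Of 9 glycosyltransferases that build carbohydrate blood groups 0 were called. ABO, which adds the A or B sugar, had a log2 change of 0.40 and GBGT1, the Forssman synthase, one of -0.52 (adjusted p = 0.365 and 0.263). The groups did not overlap for either gene. FUT1 and FUT3, fucosyltransferases of the H and Lewis antigens, had log2 changes of 0.24 and -0.16 (adjusted p = 0.621 and 0.773). Of the 9 enzymes 7 lay under the array median on all 6 arrays.

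**Figure D3:**
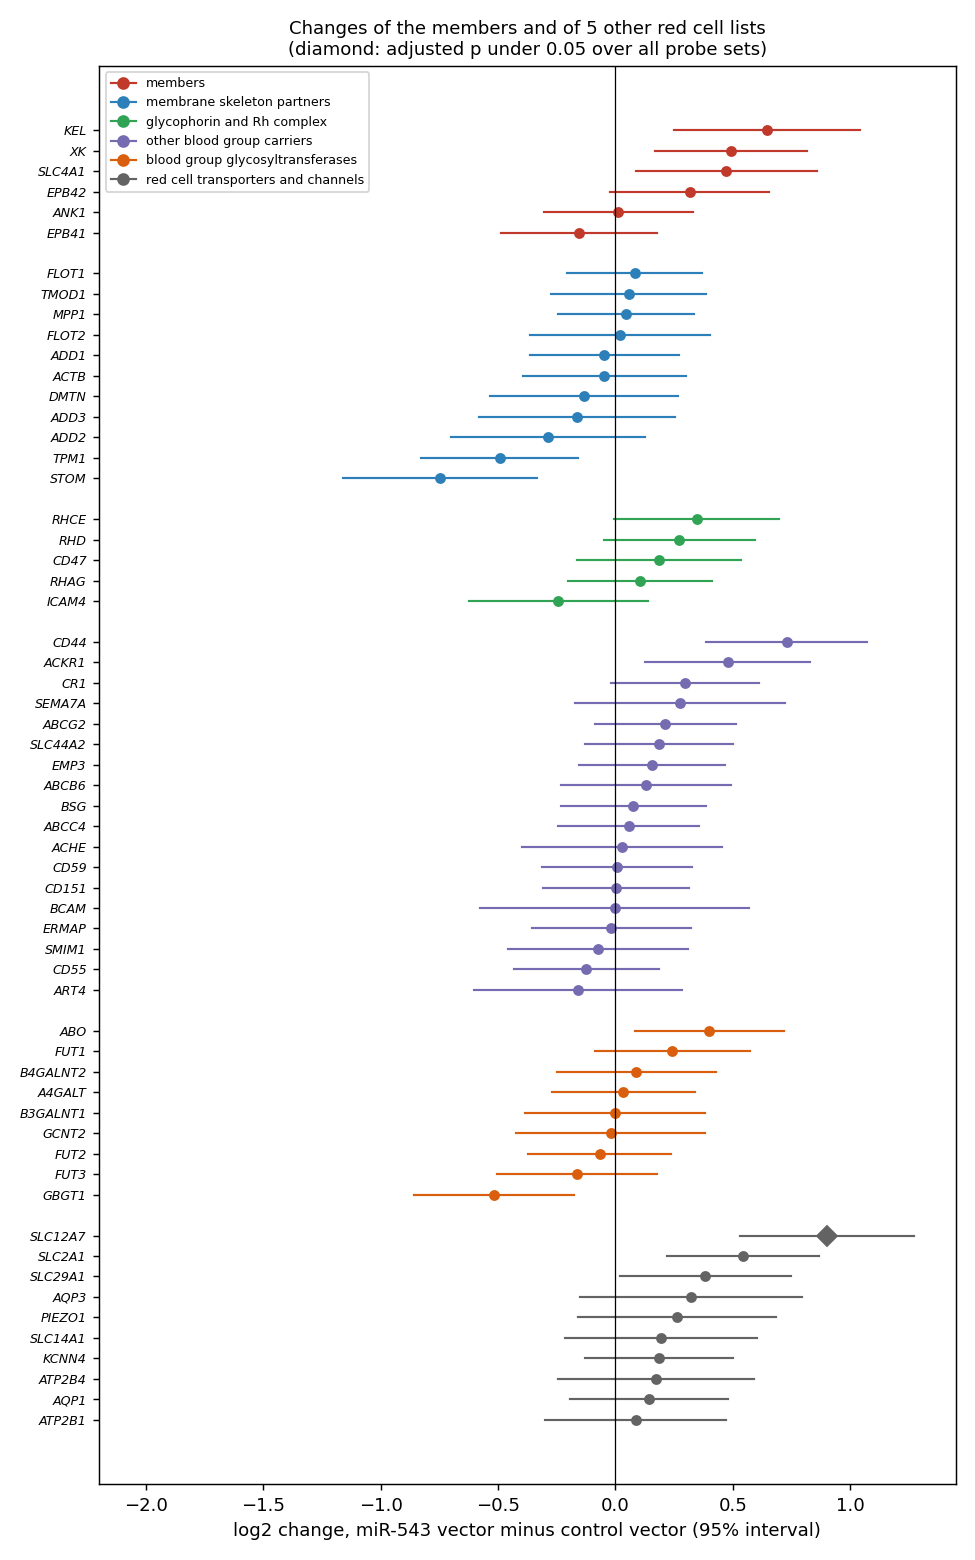
Log2 change with 95% interval for the 6 members and for 53 genes of 5 other red cell lists, coloured by list and sorted within each list. SLC12A7, drawn as a diamond, is the 1 called gene, and the intervals of KEL, XK, SLC4A1, CD44, ACKR1, ABO, SLC2A1 and SLC29A1 lie above 0 while those of STOM, TPM1 and GBGT1 lie below it.

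Relatives of the members had a median log2 change of 0.00 over 36 measured genes, with 18 above 0, 18 below 0 and 0 called. On all 6 arrays 5 of the 36 lay above the upper quartile and 21 lay under the median. XKR3, a relative of XK that is known as one side of a NUP214-XKR3 fusion in K562 cells, had a log2 change of 0.34 and groups that did not overlap (adjusted p = 0.412). MMEL1, a zinc endopeptidase of the family of Kell, had one of 0.52 at a signal under the median on all 6 arrays (adjusted p = 0.276). SLC4A3, an anion exchanger of the band 3 family, had one of 0.38 (adjusted p = 0.417). EPB41L2, a close relative of protein 4.1, had one of -0.39 with groups that did not overlap (adjusted p = 0.362), and EPB41 itself one of -0.16. The lipid transfer protein VPS13A, which binds XK and whose loss causes chorea-acanthocytosis, had a log2 change of 0.08 (adjusted p = 0.894). VPS13B, VPS13C and VPS13D had changes of 0.21, -0.02 and 0.12.

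**Figure D4:**
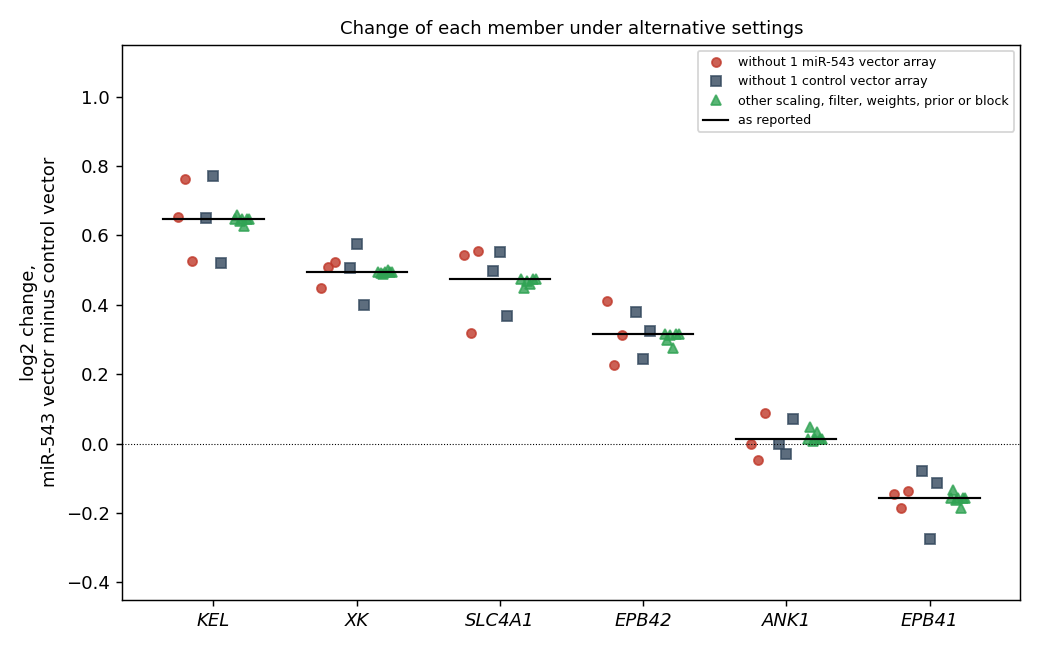
Log2 change of each member as analysed in the text (black line) and under alternatives that leave out 1 array or alter the scaling, filter, weights, variance prior or block. KEL, XK, SLC4A1 and EPB42 lie above 0 at every point, EPB41 lies below 0, and ANK1 lies on both sides of it. Leaving out an array cannot turn the sign of KEL, XK or SLC4A1, whose groups do not overlap.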

How the data were processed

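Total RNA of 6 K562 samples was labelled with biotin as cDNA, per the labels' protocols. The log2 values per probe set are those the authors deposited. Per the submitters' processing notes they were made with Transcriptome Analysis Console 4.0 and RMA, and no RMA variant or genome build is given in the sources used here. Detection calls were not used. Samples were grouped by title. The platform annotation named 17709 of 21448 probe sets by 1 symbol, 0 by several, and 3739 were unnamed here. All 17709 matched RefSeq GRCh38.p14 by gene identifier.

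All probe sets were fitted with limma 3.58.1 in R 4.3.3 (lmFit and eBayes, no filter, block or weights), two-sided, and adjusted by Benjamini-Hochberg. The steps were tested on simulated data. RMA shrinks differences at low signal. The number of arrays limits the precision. A gene with several probe sets was to be read by the one with the highest mean, and no member had more than 1. The members and lists were chosen with earlier results of these data known. Named genes were the members, called genes, up to 4 genes per list with the smallest unadjusted p, and a few partners, regulators and relatives of the members, here RHAG, KLF1, GATA1, VPS13A and XKR3. Some items of that rule are not reported here.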

Additional observations from a re-analysis of the deposited data

How the results depend on the processing

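The count of called members was 0 under all 13 alternatives, and KEL came nearest with the trend and robust prior (adjusted p = 0.0705, in a range of 0.0705 to 0.52). KEL, XK, SLC4A1 and EPB42 stayed above 0 and EPB41 below 0 under every alternative run for them. For KEL, XK and SLC4A1, whose groups did not overlap, leaving out or weighting arrays could not turn the sign. The variance prior, the shrinkage and the block left every log2 change as it was, so they could not turn it either. ANK1 turned to -0.0017 and -0.047 without miR-543 vector replicates 1 and 2 and to -0.03 without control vector replicate 2, in a range of -0.047 to 0.088 with 1 array left out. The median change of the members was 0.25 when probe sets under the median mean were left out, which removed SLC4A1 and EPB42 and kept 4 members. It was 0.27 without miR-543 vector replicate 2 and ran from 0.27 to 0.44 with 1 array left out. Between 2 and 4 members had groups without overlap, counted in either direction, under the 9 alternatives that allow this count. Without control vector replicate 2 the count was 4, with 3 of these members higher and EPB41 lower. Groups that do not overlap stay apart when 1 array is left out, so the count could not fall under 3 there. The shares given next count the higher side only. The share of all probe sets lying higher without overlap was 7.89% as reported and 9.6% with probe sets under the median mean left out. With 1 array left out that share was 11.5% to 14.4%. Calls over all probe sets, 122 as reported, numbered 252 with the trend and robust prior, 34 to 59 with 1 array left out, and 2 without variance shrinkage, a setting added after the data had been seen. With the replicate number as a block 71 probe sets were called. Whether the replicate numbers pair the arrays could not be settled. Deviations from the group means correlated across probe sets at 0.09, -0.05 and 0.02 for replicates 1, 2 and 3. Between arrays of unlike number they correlated at -0.09 to 0.07. Deviations from a mean of 3 arrays sum to 0, so these correlations cannot exclude a shared culture or day. SLC12A7 was followed through the 13 alternatives only after the data had been seen, and it kept its call under 3 of them. It lost the call after further quantile normalization (adjusted p = 0.0524), at equal array medians (0.0511) and with the replicate block (0.143). The call was also lost without shrinkage (0.369) and with any 1 array left out. The cause of these moves was not tested. No member had a second probe set, so that alternative was not run.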
